A study of Mus musculus with 20 samples.

Results

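In fasted mouse liver, 2930 H3K4me1 regions were called in Ppara-intact livers and in no Ppara-null liver. They are 2.84% of the 103014 H3K4me1 intervals in the authors' consensus set, and they are called the lost regions here. The regions were chosen by their own H3K4me1 peak calls: a peak had to overlap the interval by 1 base or more in at least 3 of the 4 livers with Ppara and in 0 of the 4 livers without it. Their H3K4me1 difference between livers with and without Ppara is therefore a description and carries no test. The other readouts of the study, H3K27ac in the same 8 livers and H3K9ac in 2 genotypes, took no part in the choice.

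H3K4me1, monomethylation of lysine 4 of histone H3, marks enhancers, both those in use and those only primed for use. H3K27ac is laid down by acetyltransferases such as p300 and CBP at enhancers and promoters in use, so a region with the first mark and without the second is usually called poised or primed. H3K9ac is found mainly at active promoters. PPARα, the product of Ppara, is a nuclear receptor that binds fatty acids and pairs with RXR on direct repeats of the core motif AGGTCA spaced by 1 base. In the fasted liver it drives the genes of fatty acid uptake, mitochondrial and peroxisomal β-oxidation, microsomal ω-oxidation and ketone body synthesis.

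All mice were C57BL/6 males, 9 weeks old, fasted for 24 hours from 3 pm to 3 pm, and the tissue was flash-frozen whole liver. The groups were WT mice, Cpt2 L-/- mice (Cpt2 KO here), which lack Cpt2 in the liver, Ppara -/- mice (Ppara KO), which lack Ppara in the whole body, and Cpt2 L-/-; Ppara -/- double knockouts (DKO). Each of the 4 genotypes gave 2 livers for H3K4me1 and for H3K27ac, and the peak names give the same animal number to the lists of both marks, so both marks were measured in the same livers. Cpt2 encodes carnitine palmitoyltransferase 2, the inner-membrane enzyme that mitochondrial oxidation of long-chain fatty acids needs. WT and Cpt2 KO livers are Ppara-intact, and Ppara KO and DKO livers are Ppara-null. The animal numbers of the Ppara-intact and Ppara-null mice form separate series, so an effect of Ppara and of the breeding or handling series cannot be told apart. In whole liver, fewer cells of a type and less of a mark per cell cannot be told apart either. The Cre line and the deleted parts of Cpt2 and Ppara are not given in the sources used here.

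Enhancer marks at a gene's start are the ones that can be shown with sequence here. Of the 2930 lost regions, 111 (3.79%) overlapped at least 1 base of a RefSeq promoter, which runs from 250 bases before to 50 bases after a transcript start. Among all H3K4me1 intervals the share was 5.61%. These 111 regions touched 121 of 32851 listed promoters. Of the 111 regions, 9 also had H3K27ac peaks in at least 3 Ppara-intact and 0 Ppara-null livers, 63 had no H3K27ac peak in any liver, and 16 had one in all 8. Of all 2930 lost regions, 229 (7.82%), 1826 (62.3%) and 122 did. The 9 regions serve only to choose the promoters shown. Printed next are the promoters of 4 protein-coding genes from those 9 regions, since there both marks were called with Ppara and not without it. Mogat1 makes diacylglycerol from monoacylglycerol, Fitm1 helps form lipid droplets, Fbp2 is the muscle-type fructose-bisphosphatase, and 1700102P08Rik is a gene without a settled role. Sequences are RefSeq, build GRCm38.p6, in the direction of the gene. Capitals mark the stretch nearest to the direct repeat AGGTCANAGGTCA, on either strand, where it has at most 2 mismatches.
Mogat1: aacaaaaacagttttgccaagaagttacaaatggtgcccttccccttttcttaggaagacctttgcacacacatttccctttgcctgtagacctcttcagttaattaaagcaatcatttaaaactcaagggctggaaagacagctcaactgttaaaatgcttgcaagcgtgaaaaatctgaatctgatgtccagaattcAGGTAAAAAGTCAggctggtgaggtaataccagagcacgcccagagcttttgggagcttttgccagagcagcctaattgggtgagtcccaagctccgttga
Fitm1: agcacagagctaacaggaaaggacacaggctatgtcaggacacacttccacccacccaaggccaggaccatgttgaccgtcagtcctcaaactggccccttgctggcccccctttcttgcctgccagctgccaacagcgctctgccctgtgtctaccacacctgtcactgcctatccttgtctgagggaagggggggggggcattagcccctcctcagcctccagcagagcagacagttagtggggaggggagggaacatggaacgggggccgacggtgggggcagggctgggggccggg
Fbp2: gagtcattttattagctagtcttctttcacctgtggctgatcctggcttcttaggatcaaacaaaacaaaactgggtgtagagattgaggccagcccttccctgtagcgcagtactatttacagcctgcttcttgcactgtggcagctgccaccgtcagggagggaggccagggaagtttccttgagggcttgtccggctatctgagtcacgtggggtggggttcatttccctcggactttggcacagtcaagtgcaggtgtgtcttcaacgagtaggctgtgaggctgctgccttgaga
1700102P08Rik: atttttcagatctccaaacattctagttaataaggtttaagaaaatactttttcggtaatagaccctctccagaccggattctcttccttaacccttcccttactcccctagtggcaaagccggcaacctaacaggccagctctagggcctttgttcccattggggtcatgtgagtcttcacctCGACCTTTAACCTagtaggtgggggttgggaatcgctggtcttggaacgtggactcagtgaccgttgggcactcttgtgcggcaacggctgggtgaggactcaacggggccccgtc

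The Mogat1 promoter lies at chr1:78510810-78511109 on the plus strand. Its stretch AGGTAAAAAGTCA has 2 mismatches and starts 51 bases before the transcript start. The lost region, chr1:78510550-78510973, covers 164 bases of the promoter and ends before that stretch. Fitm1 is at chr14:55575424-55575723 (plus), Fbp2 at chr13:62858351-62858650 (minus) and 1700102P08Rik at chr9:108392584-108392883 (plus), and all 300 bases of each lie inside a lost region. The 1700102P08Rik promoter holds CGACCTTTAACCT, 2 mismatches from the repeat on the other strand, inside the region. The best stretches in Fitm1 and Fbp2 have 3 and 4 mismatches.

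H3K4me1 at the Mogat1 region had folds of 6.55 in WT 1, 15.9 in Cpt2 KO 1 and 7.72 in Cpt2 KO 2, with no call in WT 2. H3K27ac there had folds of 9.25 and 13.4 (WT) and 32.8 and 32 (Cpt2 KO), with no peak in any Ppara-null liver. The Cpt2 KO livers were the higher pair. At the Fitm1 region the folds were 10.6 and 11.2 (WT) and 8.0 and 11.8 (Cpt2 KO). At the Fbp2 region they were 4.33 and 6.64 (WT) and 10.3 and 11.2 (Cpt2 KO). The 1700102P08Rik region had 6.5 and 6.71 (WT) and 8.57 and 9.11 (Cpt2 KO). None of these 3 regions had an H3K27ac peak in a Ppara-null liver.

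The direct repeat with at most 2 mismatches was in 5 of the 121 promoters (4.13%) and in 3.86% of all listed promoters, which have the same length. With at most 1 mismatch it was in 1 (0.826%, against 0.554%), and the exact repeat was in 0 (against 0.04%). The forkhead motif TGTTTAC was in 2.48% of the 121 and 3.65% of all, the C/EBP motif TTGCNNAA in 9.92% and 10.8%, and the glucocorticoid receptor core ACANNNTGT in 6.61% and 6.85%. Both strands were read for each motif. The shares at the 121 promoters were close to those of all promoters. Regions away from promoters were not searched, since no genome sequence was used here.

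The H3K4me1 calls behind the rule were uneven between livers. Of the 2930 regions, 2757 were called in WT 1, 2720 in WT 2, 1094 in Cpt2 KO 1 and 2841 in Cpt2 KO 2. Thus 622 regions were called in all 4 Ppara-intact livers and 2308 in 3, and 1836 of those 2308 lacked a call in Cpt2 KO 1. The peaks of Cpt2 KO 1 covered 41.4 Mb, against 52.5, 53.2 and 53.5 Mb in the other Ppara-intact livers. The Ppara-null livers covered 53.3 Mb (Ppara KO 1), 42.7 Mb (Ppara KO 2), 38.8 Mb (DKO 1) and 46.0 Mb (DKO 2). Covered length was thus lower in 3 of the 4 Ppara-null livers and in 1 of the 4 Ppara-intact ones, and its part in the calls was not tested. A region without a deposited peak is one below the caller's threshold in that liver, not one without the mark.

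Peak height at the lost regions was modest. The deposited fold, the authors' enrichment of the peak over input, had medians of 5.75 in WT 1, 5.94 in WT 2, 6.32 in Cpt2 KO 1 and 5.93 in Cpt2 KO 2 where a region was called. Those of all peaks in these libraries were 5.89, 5.93, 6.12 and 5.89. Just outside the rule, 5262 intervals called in 2 Ppara-intact and 0 Ppara-null livers had a median fold of 5.46. A further 4928 intervals called in 3 or 4 Ppara-intact livers and in exactly 1 Ppara-null liver had medians of 6.04 in the former and 5.68 in the latter, and 4253 of those single calls came from Ppara KO 1. Just inside, the medians were 5.75 for regions called in 3 livers and 6.48 for those called in 4.

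The number of regions rests on some single livers. Without Ppara KO 1 the rule gave 7183 regions, and without Ppara KO 2, DKO 1 or DKO 2 it gave 3158, 3120 and 3187. Without Cpt2 KO 2 it gave 711, without WT 1 795, without WT 2 832 and without Cpt2 KO 1 2458. When a Ppara-intact liver was left out, 3 calls were still needed, so all 3 remaining livers had to call the region. Leaving out a Ppara-intact liver could thus only lower the number, and leaving out a Ppara-null one could only raise it.

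The lost regions were short and mostly inside genes. Their median width was 645 bases, against 1342 for the 34977 intervals called in at least 3 Ppara-intact and at least 1 Ppara-null liver (kept regions) and 518 for all intervals. The middle of 75% of them lay inside a protein-coding gene body, against 71.2% of kept regions and 67.1% of all intervals. Their median distance to the nearest listed RefSeq start was 19.5 kb, and 6.96% lay within 1000 bases of one. Over all intervals these values were 18.8 kb and 9.23%. Gaps in the list of starts, which has none on chromosome 18, make some distances too long. The Fabp4 region, inside the gene body, lay 3585659 bases from a listed start. Of the lost regions, 39.3% lay within 2000 bases of an interval called in all 8 livers, against 34.5% of all intervals, and 30.3% lay within 5000 bases of another lost region. They were 2.09% of the H3K4me1 intervals on chromosome X and 3.87% on chromosome 15, the lowest and highest shares apart from chromosome Y, which held 1 interval and no lost region.

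By nearest protein-coding gene body, the lost regions fell to 1921 of the 14296 genes that had any H3K4me1 interval (13.4%). Of these 1921 genes, 1343 had 1 lost region. Genes of fatty acid oxidation had them more often: 40 of the 74 genes in 5 lists with an interval (54.1%), holding 79 lost regions among 796 intervals (9.93%, against 2.84% of all intervals). By list these were 6 of 13 genes of fatty acid uptake and activation, 13 of 23 of mitochondrial oxidation, 11 of 22 of peroxisomal oxidation, 5 of 9 of microsomal ω-oxidation and 5 of 7 of ketone body metabolism. The lists were written with earlier results of these data known, and these counts carry no test. When all gene bodies within 50000 bases of a region were counted, the shares became 66.7% of the oxidation genes and 26.0% of all genes.

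**Figure D1:**
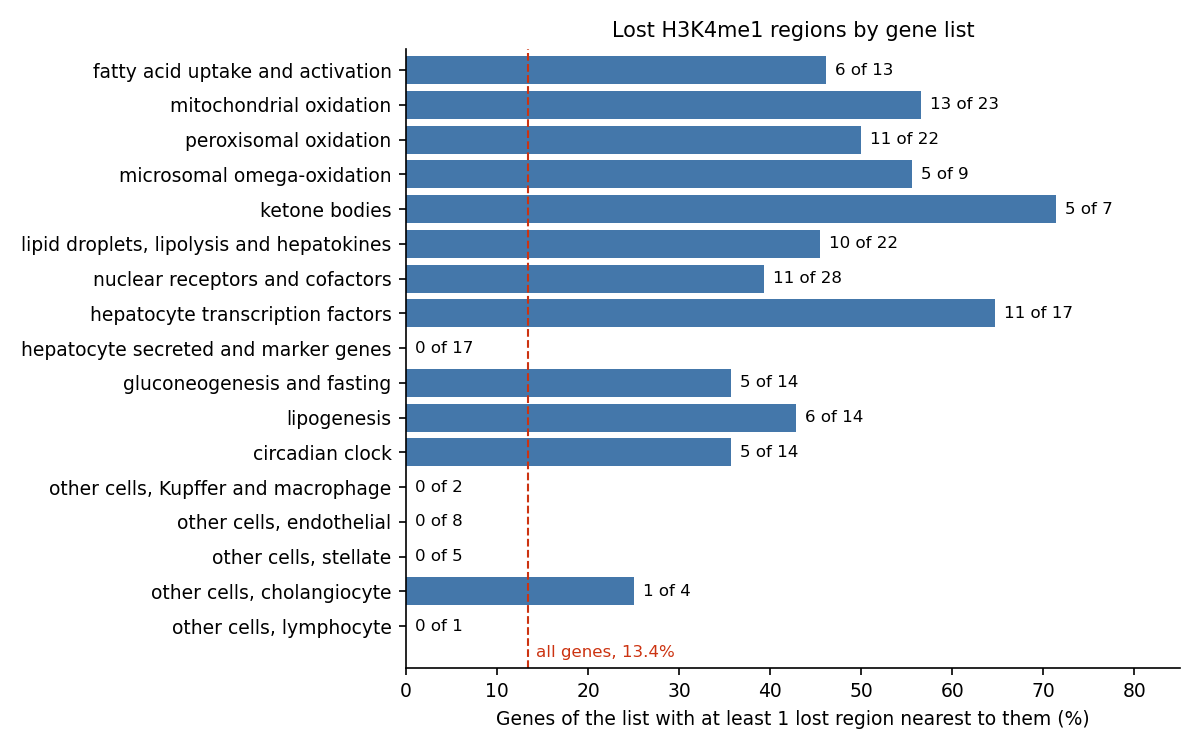
Share of the genes in each list that had at least 1 lost region nearest to them (bars, percent of the list's genes with any H3K4me1 interval), with counts beside the bars; the dashed line is the share over all genes, 13.4%. The 5 oxidation lists, from uptake to ketone bodies, stand between 46.2% and 71.4%, and the hepatocyte secreted and marker genes at 0 of 17.

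Fatty acid uptake and activation held 21 lost regions. Cd36 is a fatty acid transporter and Acsl1 the main long-chain acyl-CoA synthetase of liver. The Cd36 region, chr5:17879890-17882300, had H3K4me1 folds of 4.5 in WT 1, 12.8 in Cpt2 KO 1 and 7.98 in Cpt2 KO 2, with no call in WT 2. Its H3K27ac folds were 9.05 in WT 1, 19.2 in Cpt2 KO 1 and 23.5 in Cpt2 KO 2, again with no call in WT 2 or in a Ppara-null liver. Both marks were thus higher in the Cpt2 KO livers than in WT. The transporter genes Slc27a2 and Slc27a1 had 4 and 1 lost regions. The Slc27a1 region, chr8:71566939-71568509, 1004 bases from the gene body, had H3K4me1 folds of 5.0, 7.83, 10.3 and 6.1 in WT 1, WT 2, Cpt2 KO 1 and Cpt2 KO 2. Its H3K27ac folds were 4.22, 19.4, 14.8 and 22.1 in the same order, and 4.17 in DKO 2. The H3K27ac consensus interval that crosses this region reaches beyond it and was called in all 4 Ppara-null livers. That interval was lower without Ppara by -1.29 on the log2 scale (limma adjusted p = 0.00062).

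Acsl1 had more lost regions than any other gene, 10 of its 53 intervals. They lay between -80.6 and 71.8 kb from the first listed start, 6 of them inside the gene body (chr8:46471037-46536051). The highest, chr8:46508407-46509479, had H3K4me1 folds of 8.18 in WT 1, 10.2 in WT 2 and 6.21 in Cpt2 KO 2. Its H3K27ac folds in those livers were 6.4, 5.0 and 5.16, and no peak of either mark was called there in Cpt2 KO 1 or in a Ppara-null liver. It was the only one of the 10 with H3K27ac peaks in at least 3 livers. H3K27ac peaks covered 38.7% and 47.7% of the 65.0 kb gene body in the WT livers, 26.0% and 33.2% (Cpt2 KO), 17.9% and 23.0% (Ppara KO), and 14.0% and 12.9% (DKO). For H3K27ac, the values of the WT and Cpt2 KO livers were all above those of the Ppara-null livers. H3K4me1 peaks covered 52.2% and 51.5% (WT), 38.8% and 44.0% (Cpt2 KO), 42.1% and 34.9% (Ppara KO), and 30.2% and 27.6% (DKO). There the groups overlapped, since Ppara KO 1 was above Cpt2 KO 1. Since Acsl1 was picked for its number of lost regions, these values are a description. The next genes by number were Tlcd4 (8 of 34 intervals), Slc23a2 (8 of 38), Slc22a23 (8 of 62), Arid1b (8 of 117) and Itpk1 (7 of 34).

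**Figure D2:**
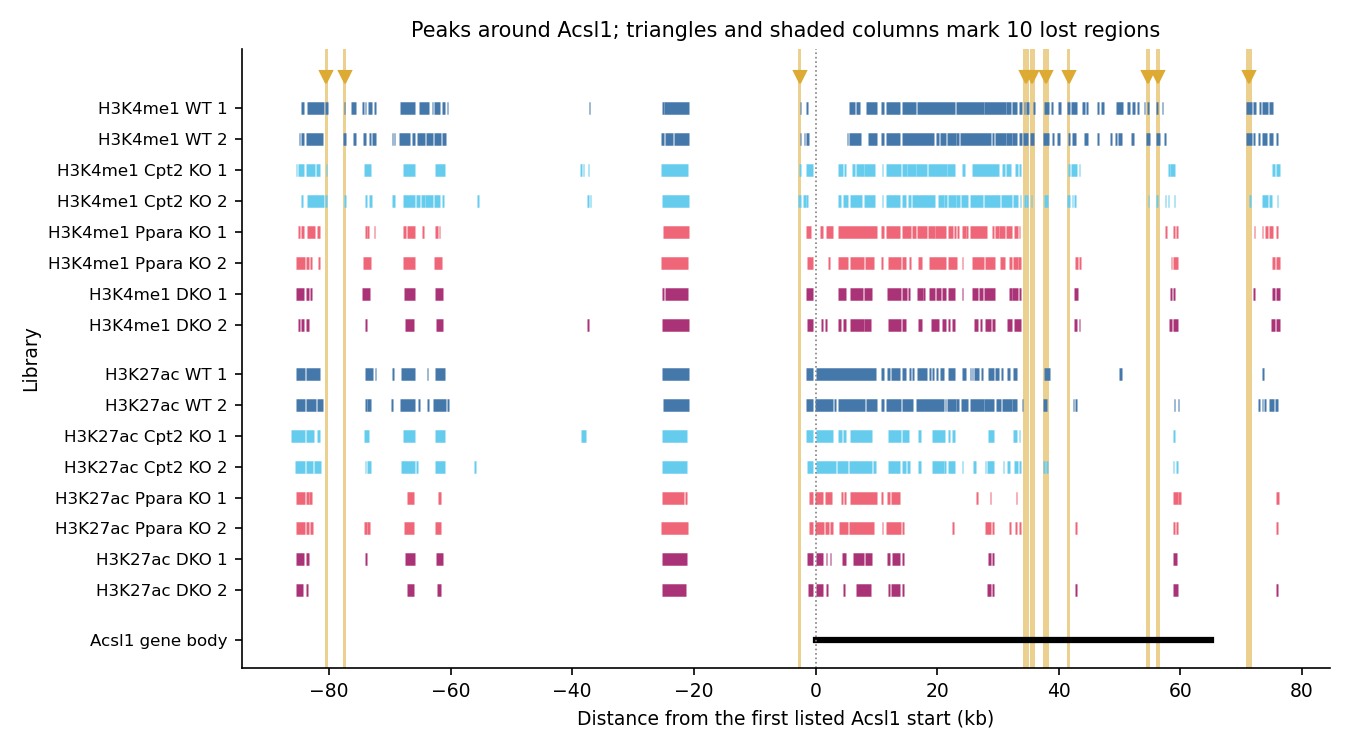
Deposited peaks of each library around Acsl1 by distance from its first listed start in kb, H3K4me1 above and H3K27ac below, with the gene body in black; triangles and shaded columns mark the 10 lost regions. The shaded columns inside and behind the gene hold H3K4me1 peaks in the WT rows and none in the Ppara KO and DKO rows.

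Mitochondrial oxidation held 18 lost regions, spread thinly. Eci1, the enoyl-CoA isomerase of unsaturated fatty acids, had the strongest one, chr17:24429283-24431354, with H3K4me1 folds of 7.67, 10.6, 9.46 and 8.53 in WT 1, WT 2, Cpt2 KO 1 and Cpt2 KO 2. H3K27ac there was 9.67 and 8.56 (WT) and 18.0 and 21.4 (Cpt2 KO), and no peak of a Ppara-null liver overlapped the region. The wider H3K27ac interval across it was called in all 8 livers and was lower without Ppara by -0.98 on the log2 scale (limma adjusted p = 0.00385). The Acaa2 region (thiolase) had H3K4me1 folds of 7.97, 6.0, 11 and 8.2 in the same order and H3K27ac only in Cpt2 KO, at 3.5 and 4.0. Slc22a5, the carnitine importer, had a region with H3K4me1 folds of 5.5, 7.75, 6.4 and 11.6 and no H3K27ac peak in any liver. The strongest lost regions at Acads, Hadhb, Hadh, Etfa, Mlycd, Acot2 and Cpt2 itself likewise had no H3K27ac peak in any liver. Ucp2 differed: its lost region had H3K27ac peaks in all 8 livers, from 8.62 in WT 2 to 26.6 in DKO 2.

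Peroxisomal oxidation held 28 lost regions at 11 genes. Acaa1b, the peroxisomal thiolase, had the strongest, chr9:119149490-119151627, with H3K4me1 folds of 10.8 in WT 1, 13.4 in WT 2 and 13 in Cpt2 KO 2. Its H3K27ac folds there were 6.72, 5.26 and 6.8, and no peak of either mark was called in Cpt2 KO 1. Ehhadh, the bifunctional enzyme, had 3 lost regions. The highest, chr16:21791836-21793190, had H3K4me1 folds of 5.69, 6.5, 8.74 and 9.29 in WT 1, WT 2, Cpt2 KO 1 and Cpt2 KO 2, and H3K27ac of 5.0 in WT 2, 14.4 in Cpt2 KO 1 and 12 in Cpt2 KO 2. Crot, which makes carnitine esters of shortened acyl chains, had 5 lost regions. One of them lay 30738 bases from the gene, with H3K27ac of 12.2 and 16.6 (WT) and 22.3 and 18.3 (Cpt2 KO). The thioesterase Acot8 had H3K27ac of 9.35 and 7.0 (WT) and 15.0 and 14.2 (Cpt2 KO) at its lost region. No H3K27ac peak of a Ppara-null liver overlapped the Ehhadh, Crot and Acot8 regions. The H3K27ac consensus intervals that cross the Ehhadh and Crot regions reach beyond them, however, and were called elsewhere in 4 and 3 Ppara-null livers. That of Ehhadh differed by -0.05 on the log2 scale between Ppara-null and Ppara-intact livers (limma adjusted p = 0.898). Abcd3, a peroxisomal fatty acid importer, had 6 lost regions, and the highest had H3K4me1 folds of 6.42 to 7.34 and no H3K27ac peak.

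Microsomal ω-oxidation is carried out by the Cyp4a enzymes, textbook targets of PPARα. The Cyp4a14 region, chr4:115490885-115492775, had H3K4me1 folds of 6.43 in WT 1, 5.02 in WT 2 and 7.36 in Cpt2 KO 1. H3K27ac was 5.55 in WT 1, 30.6 in Cpt2 KO 1 and 26.7 in Cpt2 KO 2, with no peak in WT 2 or without Ppara. At Cyp4a10, chr4:115520891-115522317, H3K4me1 was 6.51, 6.56, 7.36 and 4.38 in WT 1, WT 2, Cpt2 KO 1 and Cpt2 KO 2, and H3K27ac was 4.66 in WT 1, 7.92 in Cpt2 KO 1 and 19.8 in Cpt2 KO 2. No peak of a Ppara-null liver overlapped this region, although its wider interval was called in all 4 of them, and that of Cyp4a14 in 2. H3K27ac was thus highest in the Cpt2 KO livers at both regions. H3K4me1 was highest in Cpt2 KO 1 at both, but Cpt2 KO 2 had no call at Cyp4a14 and the lowest fold at Cyp4a10. The Cyp4a genes, and the Acot1 to Acot4 genes, are near-identical copies in tandem. How reads shared by copies were placed is not given in the sources used here, so their values are uncertain.

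Ketone body genes held 6 lost regions at 5 genes, among them Acat1, Bdh1 and Slc16a1. Acat1, the mitochondrial acetoacetyl-CoA thiolase, had H3K4me1 of 6.0 in WT 1, 5.6 in WT 2 and 6.8 in Cpt2 KO 2 at chr9:53595283-53595939. H3K27ac there was 3.67, 7.04, 5.5 and 5.4 in WT 1, WT 2, Cpt2 KO 1 and Cpt2 KO 2, with no peak in a Ppara-null liver. Both marks were thus of similar, low height wherever they were called. Bdh1, the hydroxybutyrate dehydrogenase, and Slc16a1, a monocarboxylate transporter that carries ketone bodies, had no H3K27ac peak in any liver at their lost regions. Their H3K4me1 folds lay between 4.39 and 8.28.

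Among genes of lipid droplets, lipolysis and hepatokines, 10 of 22 had a lost region. Plin2 and Plin4 coat lipid droplets, Vnn1 is a pantetheinase, and Fgf21 is a fasting hormone of the liver. The Plin4 region had H3K4me1 of 7.33, 9.67 and 5.5 and H3K27ac of 8.07, 9.6 and 5.0 in WT 1, WT 2 and Cpt2 KO 2. The Vnn1 region had H3K27ac of 8.71 and 9.83 (WT) and 18.3 and 13.4 (Cpt2 KO). At Fgf21, chr7:45612242-45612992, H3K4me1 was 7.14, 6.08 and 4.5 in WT 1, WT 2 and Cpt2 KO 2, and H3K27ac was called only in WT, at 6.5 and 5.93.

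**Figure D3:**
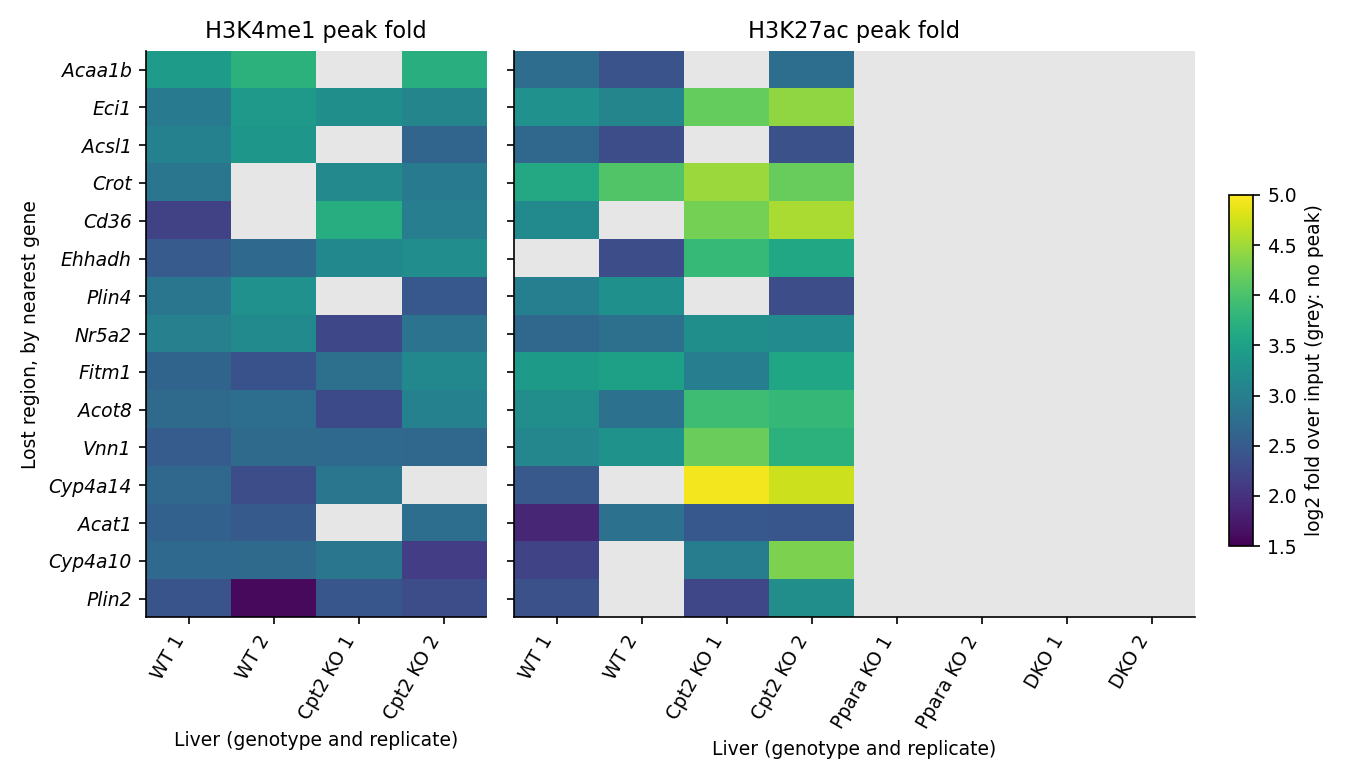
H3K4me1 (left, 4 Ppara-intact livers) and H3K27ac (right, 8 livers) log2 fold over input at 15 of the 16 lost regions of the gene lists (1 is not shown) whose H3K27ac peaks were in at least 3 Ppara-intact and 0 Ppara-null livers; each row is a region by its nearest gene, and grey means no deposited peak. The Ppara KO and DKO columns are grey because that H3K27ac pattern chose the rows; within the Ppara-intact columns, the Cyp4a14, Eci1 and Cd36 rows are brightest in Cpt2 KO.

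Regulators of hepatocyte identity also carried lost regions. Hepatocyte transcription factors had one at 11 of 17 genes, 28 regions among 586 intervals (4.78%), and nuclear receptors and cofactors at 11 of 28 genes, 22 among 707 intervals (3.11%). Over all genes, 13.4% had a lost region and 2.84% of intervals were lost, near the interval share of the nuclear receptor list. A gene with many intervals has more occasions for a lost region, which the gene counts do not adjust for. None of the 28 regions and 1 of the 22 had lost H3K27ac, where 7.82% of all lost regions had; counts this small do not show a difference from that share. Ppargc1b, a coactivator of PPARα, had 5 lost regions, the highest with H3K4me1 of 7.64, 7.91 and 12.1 in WT 1, WT 2 and Cpt2 KO 2 and no H3K27ac peak. Nfib and Zhx2 had 4 and 3. The 1 with lost H3K27ac was at Nr5a2, a nuclear receptor of bile acid synthesis, with H3K27ac of 6.44, 6.91, 9.5 and 9.08 in WT 1, WT 2, Cpt2 KO 1 and Cpt2 KO 2. Ppara itself held 2 lost regions inside its body; that gene is altered in the Ppara-null mice, and whether these regions lie in the deleted part is not given in the sources used here.

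Other metabolic lists were also represented. Lost regions were nearest to 5 of 14 genes of gluconeogenesis and fasting (among them Irs2, Foxo1 and Foxo3), 6 of 14 of lipogenesis (Srebf1, Acacb, Scd1, Fads2, Thrsp and Mlxipl) and 5 of 14 circadian genes (Arntl, Clock, Per2, Hlf and Bhlhe41). Over all genes the share was 13.4%. By interval, the lists had 14 of 376 (3.72%), 10 of 223 (4.48%) and 7 of 165 (4.24%), not far from the 2.84% of all intervals. None of these genes had lost H3K27ac at a lost region, where 7.82% of all lost regions had. With 14, 10 and 7 lost regions in the lists, this does not show a difference from that share. The Clock region, chr5:76288201-76288800, had H3K4me1 of 11.5, 8.46 and 6.68 in WT 1, WT 2 and Cpt2 KO 2 and no H3K27ac peak. The label liver was checked with markers: 17 of 18 hepatocyte secreted and marker genes, such as Alb and Apob, had H3K4me1 intervals (184), and 0 of them was a lost region. Kupffer, endothelial, stellate and lymphocyte genes with intervals numbered 2 of 9, 8 of 9, 5 of 9 and 1 of 8, with 0 lost regions among 110 intervals. Of the 6 cholangiocyte genes, 4 had intervals (30). Sox9 had 2 lost regions, the higher 62058 bases from its gene body, and Epcam, Spp1 and Cldn7 had 0.

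The strongest lost regions lay mostly outside the oxidation lists, which held the last of the first 12, Acaa1b. The first by mean H3K4me1 fold lay in Sema5b, a semaphorin gene, at chr16:35631234-35636426. Its H3K4me1 folds were 21.2, 14.8, 17.0 and 20.4 in WT 1, WT 2, Cpt2 KO 1 and Cpt2 KO 2, and its H3K27ac folds 21.1, 14.5, 20.8 and 30.9, with no H3K27ac peak in a Ppara-null liver. In the second, near Trarg1 (chr11:76708290-76709943), H3K27ac was 23.1, 23.3, 53.9 and 28.7 in the same order, and 7.37 and 11.7 (DKO). Pik3c2g, a class II phosphoinositide 3-kinase, had H3K4me1 of 12.6, 13.4, 28.5 and 15.2 at chr6:139901143-139902551, and H3K27ac of 10.8 and 12.9 (WT) and 34.2 and 32.2 (Cpt2 KO). Slc39a5, a zinc transporter, had H3K4me1 of 17.2, 18.2, 9.75 and 20.5 at chr10:128395331-128397908, and H3K27ac between 4.34 and 9.0 in the Ppara-intact livers. The region near Cops7b (chr1:86631401-86634795) had H3K4me1 of 12.8, 16, 17.8 and 16 and H3K27ac of 18.6, 17.0, 25 and 29.0. Apart from the Trarg1 region, none of these had H3K27ac in a Ppara-null liver. The others of the strongest 12 lay near Nt5m, Slc44a1, Trarg1 again, Mier3, Gtf3c1, Unc79 and Acaa1b.

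At the other end, the lost regions with the lowest mean fold included those in Zfp469, in Dnah3 and near Ang, with mean H3K4me1 folds of 3.32, 3.17 and 3.06. The Ang region had H3K27ac peaks in all 8 livers, from 22.0 in WT 1 to 40.3 in DKO 2, and the Zfp469 and Dnah3 regions had none.

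H3K27ac was less frequent at the lost regions in livers without Ppara. A deposited H3K27ac peak overlapped 23.5% and 22.2% of the 2930 regions in the WT livers and 19.6% and 22.0% (Cpt2 KO). It overlapped 8.67% and 7.0% (Ppara KO) and 7.03% and 7.24% (DKO). The Ppara-intact and Ppara-null livers did not overlap. The means were 21.8% ± 1.66 (SD, n = 4) and 7.48% ± 0.798 (SD, n = 4), a difference of -14.3 percentage points with a two-sided exact permutation p of 0.0286, the smallest that 4 against 4 livers can give (0.0429 adjusted over the 3 share tests). With the permutation kept within replicate numbers (a replicate block), the exact p was 0.0556, again the smallest possible. Over all 103014 intervals the shares lay between 32.9% and 34.6% in every liver, and H3K27ac peaks covered 42.1 to 47.8 Mb with Ppara and 42.0 to 47.4 Mb without it. The livers are those whose H3K4me1 chose the regions, so this comparison adds a second mark and no further animals.

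The regions called in all 4 Ppara-intact livers differed more. Of these 622 regions, 33.1% and 31.2% had H3K27ac in WT, 43.4% and 47.1% (Cpt2 KO), 4.34% and 4.34% (Ppara KO), and 4.50% and 4.50% (DKO), a difference of -34.3 points. Among the 2308 regions called in 3, the shares were 21.0%, 19.8%, 13.1% and 15.2% in WT 1, WT 2, Cpt2 KO 1 and Cpt2 KO 2, and 7.71% to 9.84% in the Ppara-null livers.

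Kept regions moved less. They had H3K27ac at 60.6% and 61.6% (WT), 54.6% and 56.2% (Cpt2 KO), 56.7% and 57.0% (Ppara KO), and 52.3% and 53.7% (DKO). Taking the kept share from the lost share in each liver, the difference between Ppara-null and Ppara-intact livers was -11 points (exact permutation p = 0.0286, 0.0429 adjusted over 3). Against the 4928 kept regions called in exactly 1 Ppara-null liver it was -5.47 points (exact permutation p = 0.286, 0.429 adjusted), which did not pass. Those regions had H3K27ac at 30.6%, 31.7%, 14.3% and 18.0% in the Ppara-intact livers and 21.0%, 15.0%, 11.9% and 11.2% in the Ppara-null ones. When both sets were limited to regions called in all 4 Ppara-intact livers, the difference was -15.1 points (exact permutation p = 0.0286, 0.0429 adjusted). Both of these narrower comparisons were added after the data were seen.

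**Figure D4:**
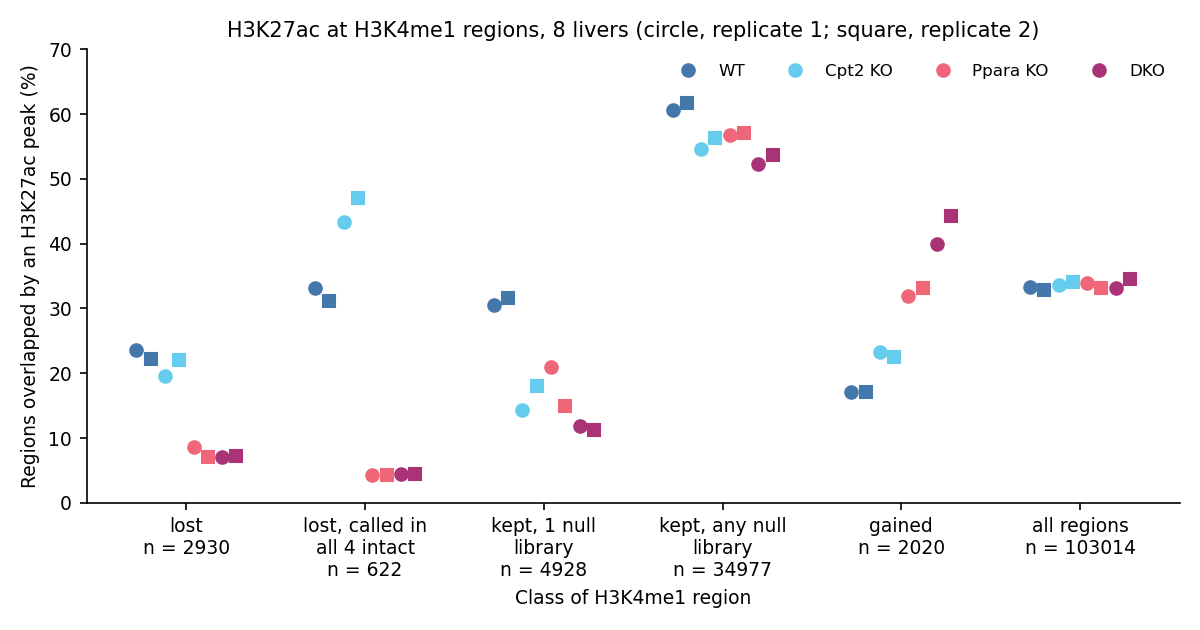
Percent of H3K4me1 regions overlapped by an H3K27ac peak in each of the 8 livers, by class of region (n below each class); colour gives the genotype, circles replicate 1 and squares replicate 2. At the lost regions the 4 Ppara-intact livers lie between 19.6% and 23.5% and the 4 Ppara-null livers between 7.0% and 8.67%.

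The difference in share by Cpt2 did not pass the test. Over the lost regions the Cpt2-null livers (Cpt2 KO and DKO) differed from the Cpt2-intact ones (WT and Ppara KO) by -1.41 points, with an exact permutation p of 0.6 (0.6 adjusted). Its sign turned with the settings, from -4.20 points without Ppara KO 2 to 6.63 points over the 622 regions called in all 4.

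Region by region, H3K27ac was lost at 229 of the 2930 regions (7.82%), meaning peaks in at least 3 Ppara-intact and 0 Ppara-null livers. At 198 of the 229, no H3K27ac consensus interval over the region had a Ppara-null call; at the other 31 such an interval reached beyond the region and was called there in a Ppara-null liver, at 20 of them in all 4. The share was 1.18% over all intervals and 1.99% over kept regions. It was 24.6% (153) of the regions called in all 4 Ppara-intact livers. H3K27ac was gained, by the same rule turned round, at 3 (0.102%), against 1.05% of all intervals. No H3K27ac peak was found in any liver at 1826 regions (62.3%), and 122 had one in all 8. From the other side, 198 of the 1139 lost H3K27ac consensus intervals (17.4%) overlapped a lost H3K4me1 region, against 1.81% of all H3K27ac intervals. Genes with 3 regions that lost both marks were Sel1l3, Pknox2, Cdh20 and Slc44a1, named after their values were seen.

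At intervals where H3K27ac was called in all 8 livers, its height could be fitted with limma. This was possible for 18281 consensus intervals, of which 215 overlapped a lost region, and it leaves out the intervals that lost their peak altogether. The fold is that of the interval's highest peak, which can lie outside the lost region. Such intervals overlapped 225 lost regions, while 122 lost regions had an H3K27ac peak in all 8 livers. With Benjamini-Hochberg adjustment over all 18281, 31 of the 215 were lower and 1 was higher in Ppara-null livers, where 4.15% and 3.19% of all intervals were lower and higher. Their median log2 difference was -0.12, against -0.01 over all intervals. The number passing, 32 in both directions, became 20 without WT 2, 19 without Cpt2 KO 2, 20 without Ppara KO 1, 21 without Ppara KO 2, 18 without DKO 2, and 19 with the library's smallest peak width as a covariate.

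Cyp4a10 had the largest decrease. Its H3K27ac interval, chr4:115513203-115522449, had folds of 12.8 and 19.0 (WT), 29.5 and 19.8 (Cpt2 KO), 6.17 and 5.5 (Ppara KO), and 7.0 and 6.43 (DKO). All 4 Ppara-intact livers were above all 4 Ppara-null livers, with a log2 difference of -1.67 ± 0.19 (SE; adjusted p = 0.000414 in limma). At Hsd17b4, a peroxisomal multifunctional enzyme, the folds were 25.5 and 28.8 (WT), 46.3 and 42.1 (Cpt2 KO), 10.8 and 14.0 (Ppara KO), and 13.5 and 11.2 (DKO). The groups again did not overlap (-1.52 ± 0.14 SE, limma adjusted p = 0.00021). The lost region inside that interval was itself overlapped by H3K27ac peaks only in WT 1 (5.98) and Cpt2 KO 2 (42.1). Lrp4, a receptor of the LDL receptor family, had folds of 26.5 and 39.2 (WT), 23.4 and 28.5 (Cpt2 KO), 7.85 and 10.8 (Ppara KO), and 11.3 and 10.6 (DKO) (-1.55 ± 0.17 SE, limma adjusted p = 0.000331). Rhob, a small GTPase, had 19.0 and 21.2 (WT), 32.4 and 27.1 (Cpt2 KO), 8.84 and 7.62 (Ppara KO), and 12.7 and 12.1 (DKO) (-1.30 ± 0.16 SE, limma adjusted p = 0.000613). Tmtc2, Elmod3, Fam102a and Zc3h13 were lower by -1.53, -1.48, -1.44 and -1.30 on the log2 scale, with limma adjusted p-values of 0.00599, 0.00106, 0.000331 and 0.000907. At the lost regions themselves, H3K27ac peaks were called only in Cpt2 KO for Tmtc2 and only in WT 1 for Elmod3. Those of Fam102a and Zc3h13 had peaks in all 4 Ppara-intact livers.

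The one increase was at Slco1a4, an organic anion transporter. Its interval, chr6:141853773-141856390, overlapped 2 lost regions and had H3K27ac folds of 7.89 and 12.4 (WT), 14.4 and 6.76 (Cpt2 KO), 23.5 and 29.2 (Ppara KO), and 24.6 and 25.2 (DKO). All Ppara-null livers were above all Ppara-intact ones (1.34 ± 0.20 SE, limma adjusted p = 0.00231), opposite to the H3K4me1 calls there.

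**Figure D5:**
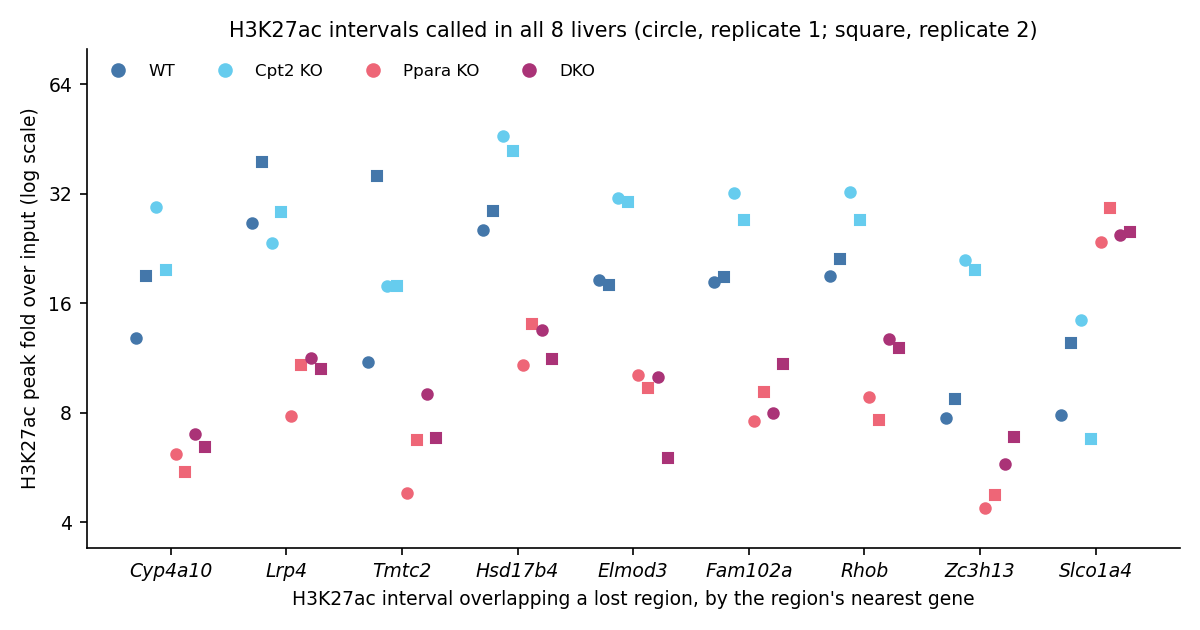
H3K27ac fold over input (log scale) of the 9 intervals with the largest Ppara differences among those called in all 8 livers that overlap a lost region; colour gives the genotype, circles replicate 1 and squares replicate 2. The Ppara KO and DKO points lie below the WT and Cpt2 KO points at 8 of the intervals and above them at Slco1a4.

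The loss of Ppara was also compared in each Cpt2 background. In Ppara KO against WT, 16 of the 215 intervals were lower and 1 higher in limma (3.59% and 2.83% of all), but 1 passed without WT 2, 2 without Ppara KO 1, 4 without Ppara KO 2, and 0 with peak width as a covariate (37 at an unadjusted p under 0.05). In DKO against Cpt2 KO, 15 were lower and 1 higher (1.64% and 0.596% of all). Here 9 passed without Cpt2 KO 1, 6 without Cpt2 KO 2 and 6 without DKO 2. The Cyp4a10 interval differed by -1.41 ± 0.27 (SE, limma adjusted p = 0.0135) in the first comparison and -1.92 ± 0.27 (limma adjusted p = 0.00263) in the second, and Hsd17b4 by -1.12 ± 0.20 (0.0118) and -1.92 ± 0.20 (0.000538). Whether the 2 backgrounds differ was not tested.

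By Cpt2, the calls at these 215 intervals were near the background. In Cpt2-null against Cpt2-intact livers, 18 were lower and 10 higher in limma, where 7.38% and 4.9% of all 18281 were. These calls depend on scaling: without centring of libraries, 9 were lower and 44 higher, and the median of all intervals was then 0.25 on the log2 scale, and with peak width as a covariate 0 passed (16 at an unadjusted p under 0.05). The median log2 difference at lost regions was -0.02 with centring, against -0.01 over all intervals. The number passing, 28 in both directions, fell to 9 without Cpt2 KO 1, 11 without WT 2, 18 without Cpt2 KO 2, 14 and 15 without Ppara KO 1 or 2, and 16 and 17 without DKO 1 or 2.

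H3K27ac was also compared between Cpt2 KO and WT within the Ppara-intact livers. This comparison was added after the data were seen. It used the 20947 H3K27ac intervals called in all 4 Ppara-intact livers, 369 of which overlapped a lost region. In limma 44 of the 369 were higher and 21 lower in Cpt2 KO, where 3.81% of all were higher and 6.18% lower. Their median log2 difference was 0.02, against -0.06 over all intervals, and 178 of the 369 were below 0. The share of all lost regions with an H3K27ac peak was 22.9% ± 0.941 (SD, n = 2) for WT and 20.8% ± 1.71 for Cpt2 KO, so it was not higher in Cpt2 KO. It was higher over the 622 regions called in all 4 Ppara-intact livers, at 32.2% (WT) and 45.3% (Cpt2 KO). Over the 2308 called in 3, of which 1836 lacked a call in Cpt2 KO 1, it was lower, at 20.4% and 14.2%. In the fit of the 369 intervals, 67 were higher and 11 lower without centring. The median of all intervals then shifted from -0.06 to 0.17 on the log2 scale. Of the 110 with no H3K27ac peak in any Ppara-null liver, 30 were higher and 2 lower, with a median log2 difference of 0.48; of all 477 such intervals 69 were higher and 8 lower, with a median of 0.10. Of the 259 with a Ppara-null peak, 14 were higher and 19 lower (median -0.11). The number passing among the 369 fell from 65 to 13 without WT 2, 14 without Cpt2 KO 1 and 38 without Cpt2 KO 2. A replicate block raised it to 96 (59 higher and 37 lower).

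Sel1l3 had the largest increase, with H3K27ac folds of 7.5 and 7.25 (WT) and 51.8 and 45.8 (Cpt2 KO) (log2 difference 2.49 ± 0.22 SE, limma adjusted p = 0.0021). The Cpt2 KO livers were far above both WT livers. A second interval at the same gene had 7.75 and 6.25 (WT) and 25.8 and 19.8 (Cpt2 KO). At the Mogat1 region described with its promoter, the difference was 1.31 ± 0.23 (SE, limma adjusted p = 0.0108), and at Pik3c2g it was 1.27 ± 0.22 (SE, limma adjusted p = 0.00931). At Cyp4a14 the interval had 9.25 and 11.6 (WT) and 30.6 and 26.7 (Cpt2 KO) (1.24 ± 0.23 SE, limma adjusted p = 0.0121). At Mtor, the nutrient-sensing kinase gene, it had 5.4 and 6.3 (WT) and 17.9 and 19.5 (Cpt2 KO) (1.45 ± 0.27 SE, limma adjusted p = 0.0118). Pcx, pyruvate carboxylase, went the other way, with 8.58 and 8.82 (WT) and 4.45 and 4.83 (Cpt2 KO) (-1.14 ± 0.28 SE, limma adjusted p = 0.0279).

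H3K4me1 itself was tested between WT and Cpt2 KO, the one H3K4me1 contrast the rule did not use. Of the 622 lost regions called in all 4 livers, 0 passed limma with adjustment over 23978 intervals, and 0.0% of all intervals passed in either direction; 69 of the 622 and 1490 of all had an unadjusted p under 0.05. Their median log2 difference was 0.13, against -0.01 over all intervals. With 2 livers against 2, a replicate block let 4 of the 622 pass.

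H3K9ac was measured in 1 WT and 1 Cpt2 KO library only, so it has no replicate check and no value without Ppara. It overlapped 505 of the 2930 lost regions in WT (17.2%) and 631 in Cpt2 KO (21.5%). With 1 library each, a difference between the genotypes cannot be told from one between libraries. The shares were 26.9% and 27.4% over all intervals and 45.6% and 43.8% over kept regions. By the strongest lost region of each gene, Acaa1b, Eci1, Cyp4a10, Cyp4a14, Acot8 and Plin4 had H3K9ac in both libraries, and Cd36, Crot and Acsl1 in neither. Weaker Acsl1 regions, chr8:46505084-46506055 and chr8:46506310-46507042, had it in WT only.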

How the data were processed

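ChIP-seq peak lists of H3K4me1 and H3K27ac in 8 livers and of H3K9ac in 2 livers were used. Reads were aligned with BWA and peaks called with MACS2 2.1.0 on mm10, per the submitters' processing notes. The authors called peaks in each library separately, and each deposited list gives a fold over input, a −log10 p and a −log10 q per peak. The deposited consensus files give interval positions, and how they were merged is not given in the sources used here. Sequencing depth is not given in the lists, so no counting limit could be set on a missing peak. Every smallest deposited −log10 p was close to 7. The H3K27ac list of Ppara KO 2 carries a misspelt build word in its track line and was read as mm10.

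A library called an interval when 1 of its peaks overlapped it by 1 base, and its fold was that of the highest such peak. Shares were tested over livers by two-sided exact permutation. Folds were tested with limma 3.58.1 (R 4.3.3) on log2 folds centred on the library median, with 1 term per genotype, Benjamini-Hochberg adjustment over all intervals and a threshold of 0.05. All 4 genotypes entered the H3K27ac fits, and the Cpt2 KO against WT fits used those 2 genotypes. Genes are protein-coding RefSeq gene bodies of GRCm38.p6, which has the coordinates of mm10. Python 3.11.15, numpy 2.4.6, pandas 2.3.3, scipy 1.17.1 and matplotlib 3.10.9 were used. The limma step was tested on simulated data. Replicates are separate animals, 2 per genotype.

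The regions, lists and tests were chosen with earlier results of these data known. Regions were named by rule: the 12 with the highest mean H3K4me1 fold, the 4 with the lowest, the strongest of up to 4 genes per list, the 10 with the largest Ppara difference in H3K27ac, and the 6 genes with most regions. Some regions that these rules pick are not reported here. Other genes named were chosen after their values were seen. Alternatives covered overlap, −log10 q, centring, quantile normalization, peak width, a replicate block and leaving out each library.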

Additional observations from a re-analysis of the deposited data

Results flagged for a closer look

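In 3 of the 40 groups of 4 livers checked, 1 library stood far from the other 3, where chance alone flags about 1 in 20 groups. The share of lost regions with an H3K27ac peak was 8.67% in Ppara KO 1, against 7.0%, 7.03% and 7.24% in the other Ppara-null livers. The number of lost regions called in Cpt2 KO 1 was 1094, against 2720, 2757 and 2841 in the other Ppara-intact livers. The H3K4me1 fold at the Pik3c2g region was 28.5 in Cpt2 KO 1, against 12.6, 13.4 and 15.2 in the others.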

How the results depend on the processing

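The number of lost regions (2930) was 1466 with −log10 q of at least 10, 622 when all 4 Ppara-intact libraries had to call the interval, and 711 to 7183 with 1 library left out. The Ppara difference in H3K27ac share kept its direction in every alternative run. With the replicate block its values were -14.3 points for the lost regions and -11 relative to kept regions, with exact permutation p-values of 0.0556 (0.0833 adjusted), the smallest a block of this size can give. Between genotypes, the H3K27ac deviations of same-numbered livers from their genotype mean correlated by -0.065 to 0.172, highest for WT with Cpt2 KO. Whether same-numbered livers shared a batch was not tested. Relative to kept regions called in exactly 1 Ppara-null library, a comparison chosen after seeing the data, the difference was -5.47 points and did not pass. The Cpt2 difference in share turned from -1.41 to 0.171 points with −log10 q of at least 10 and to 6.63 points over regions called in all 4, and spanned -4.20 to 1.32 points with 1 library left out (1.32 and 0.879 without WT 1 or 2, 0.899 and 0.83 without DKO 1 or 2). The cause was not tested.

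Of the H3K27ac intervals at lost regions, those passing limma numbered 32 by Ppara (19 with peak width as a covariate, 18 to 29 with 1 library left out), 28 by Cpt2 (53 without centring, 0 with peak width, 9 to 35), 17 in Ppara KO against WT (0 with peak width, 1 to 19) and 16 in DKO against Cpt2 KO (6 to 16). The added Cpt2 KO against WT count of 65 ran from 13 to 83 with 1 library left out and was 96 with the replicate block, where lower calls went from 21 to 37. For H3K4me1 between Cpt2 KO and WT, the replicate block gave 4 in place of 0. In the other fits at lost regions the replicate block moved no count passing by over 1.5 times. The differences over all 8 livers at the H3K27ac intervals named for their Ppara difference kept direction and call in all alternatives run; in Ppara KO against WT no interval at a lost region, those of Cyp4a10 and Hsd17b4 included, passed with peak width as a covariate. Genes of the oxidation lists with a lost region went from 54.1% to 66.7% when all genes within 50000 bases counted. The motif search in the regions themselves was not run, since no genome sequence was used here.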

Other observations

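The reverse class, 2020 H3K4me1 intervals called in at least 3 Ppara-null and 0 Ppara-intact livers, differed from the lost regions in place. Of these, 50.1% lay inside a gene body, against 75% of the lost regions, and 13.7% lay within 2000 bases of an interval called in all 8 livers, against 39.3%. H3K27ac overlapped 17.1% and 17.2% of them in WT, 23.3% and 22.5% (Cpt2 KO), 31.9% and 33.1% (Ppara KO), and 40.0% and 44.3% (DKO). These are descriptions, with no test of the difference in place.

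At a few list genes H3K27ac was called at the lost region in the Cpt2 KO livers only. Among them were Nudt7, a peroxisomal CoA pyrophosphatase, with 14.2 and 18.8 in Cpt2 KO 1 and 2, Acot4, a peroxisomal thioesterase, with 12.8 and 19.1, Vldlr, a lipoprotein receptor, with 12 and 9.89, and Acacb, the mitochondrial acetyl-CoA carboxylase, with 5.14 and 6.02. Other genes had H3K27ac at the lost region in the WT livers only, among them Slc27a2 and Onecut1, at 7.82 and 6.55 and at 4.71 and 5.52. These genes were chosen after their values were seen, and no test was run on these calls.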
